A study of Ovis aries with 6 samples.

Results

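The miR-15, miR-16, miR-195 and miR-322 family was followed in small RNA of sheep longissimus muscle, the long muscle of the back. Its members were taken by name from the deposited counts: every listed miRNA called miR-15a, miR-15b, miR-16, miR-16a, miR-16b, miR-195, miR-497, miR-322, miR-424 or miR-503, with either arm of the hairpin. This gave 17 of the 10430 miRNA names, listed in 29 of 11161 rows, and for each name the row with the highest total stood. No row carried the name miR-16a. The libraries came from 3 samples of Qianhua Mutton Merino (QHMM) and 3 of Small Tail Han (STH) sheep, kept under natural conditions with no treatment other than breed. Age and sex are not in the labels, nor do these say whether each library stands for an animal of its own. The p-values therefore rest on how far these 6 libraries spread, which may be technical.

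MicroRNAs repress messenger RNAs that pair with their seed, bases 2 to 8 from the 5′ end. The members of this family share a seed and are cut from several hairpin clusters: miR-15a with a copy of miR-16, miR-15b with another copy, miR-195 with miR-497, and miR-322 with miR-503. miR-322 is the rodent name of the miRNA that is called miR-424 in human. The family is known for holding cells in the G1 phase of the cell cycle, since cyclins D and E, CDC25A and the survival factor BCL2 are among its targets. In skeletal muscle miR-195 and miR-497 are known for keeping muscle stem cells quiescent, while miR-322 and miR-503 are known for rising as myoblasts leave the cell cycle. miR-16 is made in nearly every tissue, blood cells included.

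The 5p members are alike in their first bases and differ behind them. They were taken by the names of a known seed family, so this likeness was set by the choice. The sequences are printed as DNA letters in the order of their level, with the seed in capitals.
miR-16b: tAGCAGCAcgtaaatattgg
miR-15a-5p: tAGCAGCAcataatggtttg
miR-322-5p: cAGCAGCAattcatgttttg
miR-195-5p: tAGCAGCAcagaaatgttggt
miR-503-5p: tAGCAGCGggaacagtactgca
miR-497-5p: cAGCAGCAcactgtggtttg
miR-15b-5p: tAGCAGCAcatcatggttt
miR-16-5p: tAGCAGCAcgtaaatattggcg

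Of these 8 names, 7 had the seed AGCAGCA and miR-503-5p had AGCAGCG. Positions are counted from the 5′ end. miR-15a-5p and miR-15b-5p differed at 1 of their 19 shared positions (A12C), and miR-16b and miR-195-5p at 3 of 20 (G10A, T11G and A16G). How reads that fit both were counted is not known, and the levels within either pair are uncertain to that extent. miR-16-5p is miR-16b with 2 more bases at its end, and both names can come from either copy of miR-16, which the mature sequence does not tell apart. The predicted sheep locus of miR-195-5p differed from the rat sequence of that name by G16A and T21C, and the rat row had 5 counts against 15460 at the sheep locus. By their locus labels (submitters' build Oar_v3.1, positions not given) miR-15a lay on chromosome 10 and miR-15b on chromosome 1. miR-195 and miR-497 lay on chromosome 11, and miR-322 and miR-503 on chromosome X. Another predicted locus listed as miR-322-5p, on chromosome 2, had 660 counts against 59049. Its 17 bases were the first 17 of the row that stood, and the 2 rows may share reads. In the RefSeq annotation of another sheep build, ARS-UI_Ramb_v3.0, the gene of miR-16b lies on chromosome 1 within SMC4, a gene of the condensin complex. Only 1 member gene was found there by name.

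The 9 other names are 3p arms, on the far side of the hairpin stem. The 3p arms with the most counts, of miR-424, miR-497 and miR-503, are shown because their seeds differ from that of miR-16 and from each other. The printed miR-424-3p lies within the human sequence of that name but starts later, so that its marked seed is not that of the human miRNA.
miR-424-3p: aAAACGTGaggcgctgctat
miR-497-3p: aAACCACActgtggtgttagagcga
miR-503-3p: gGAGTATTgtttccgctgcccg

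Only miR-195-3p and miR-16-2-3p among the 9 had a seed in common. The miR-16 seed stood in few other sequences of the table. Beyond the names taken here 8 carried it, none with more than 36 counts over the 6 libraries. Among the 8 were the mouse names miR-195a-5p and miR-195b, with 1 and 2 counts, which the choice by name did not take. No other name carried the seed of miR-503-5p.

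With each name counted once, a library held 5572865 to 7930202 counts, and the family made up 1.16% to 1.70% of them. Levels are given as CPM, counts scaled to that total. The defining miRNAs of the labelled tissue were present: the 20 muscle fibre names of miR-1, miR-133, miR-206, miR-208b and miR-499, all with counts, summed to 451349 to 547593 CPM. Summed over its names the family had 15695 ± 1462 CPM in QHMM, while STH had 13364 ± 3022 CPM (SDs over 3 libraries each), and the breeds overlapped. In bulk tissue fewer cells of a type and less RNA per cell cannot be told apart. All members but 2 had at least 6 counts in every library. The exceptions were miR-322-3p, listed by its rat sequence, with 2 counts in all, and miR-16-2-3p with 2 counts, both of them in STH replicate 3. A total of 2 counts has an exact Poisson 95% interval of 0.242 to 7.22, which covers counting error only.

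miR-16b, the only member listed as a sheep miRNA, was by far the most abundant. It had 10080, 10631 and 12957 CPM in QHMM replicates 1, 2 and 3 and 13620, 9180 and 8043 CPM in STH replicates 1, 2 and 3, a mean of 10752 CPM and 16th place among all names. STH replicate 1 was the highest library and STH replicate 3 the lowest, so that the QHMM libraries lay inside the range of STH. The longer miR-16-5p had 17.8 to 28.9 CPM and also overlapped between the breeds. In the edgeR fit over all names miR-16b had a log2 fold change of 0.13 (QHMM over STH, standard error 0.23, 95% interval -0.37 to 0.64, adjusted p = 0.840). The 9 names of miR-451, miR-144 and miR-486, taken here as markers of red blood cells, all had counts. They summed to 18967 to 84308 CPM in QHMM and 7300 to 13838 CPM in STH. The library with the highest miR-16b, STH replicate 1, had the lowest red blood cell sum, and QHMM replicate 3, with the highest sum, was the second in miR-16b.

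miR-15a-5p was next, with a mean of 1485 CPM. It had 1813, 1727 and 1760 CPM in the QHMM libraries and 997, 1242 and 1371 CPM in the STH libraries, and every QHMM library lay above every STH library. The coefficient of variation was 2.46% over the QHMM libraries and 15.8% over the STH libraries. The log2 fold change was 0.55 (standard error 0.23, 95% interval 0.05 to 1.05), with an unadjusted p of 0.0336 and an adjusted p of 0.329 from edgeR, so that the difference did not pass the test over all names. miR-15b-5p had 119, 34.6 and 37.5 CPM in QHMM and 6.83, 34.5 and 30.8 CPM in STH. QHMM replicate 1 stood high and STH replicate 1 low, and the other 4 libraries lay together between 30.8 and 37.5 CPM. Its log2 fold change of 1.32 had a 95% interval of -0.23 to 2.87 (adjusted p = 0.434 from edgeR), and it was 0.58 without QHMM replicate 1 and 0.87 without STH replicate 1.

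miR-322-5p was highest in QHMM replicate 1 with 2449 CPM and had 888 and 1148 CPM in replicates 2 and 3, against 1525, 854 and 1342 CPM in the STH libraries. The same library was the highest for its other arm, listed under the human name miR-424-3p, with 84.3 CPM against 39.4 to 69.8 CPM in the others. miR-503-5p, from the same region of chromosome X, had 377, 318 and 237 CPM in QHMM and 393, 145 and 301 CPM in STH. QHMM replicate 1 and STH replicate 1 were the 2 highest libraries for each of the 4 names of this cluster, and the breeds overlapped in all of them. The log2 fold changes were 0.23 (95% interval -0.45 to 0.91) for miR-322-5p, 0.17 (-0.55 to 0.89) for miR-503-5p, -0.01 (-0.69 to 0.68) for miR-424-3p and -0.17 (-1.02 to 0.69) for miR-503-3p, and the sign of each turned when 1 of the libraries was left out. The miRNAs known to be transcribed with them were read from the same fit. Of 10 names of miR-450, miR-542 and miR-351, 5 had enough counts to be tested and none passed, with adjusted p of 0.751 or more from edgeR. Their summed level was 306 ± 109 CPM in QHMM, and in STH it was 307 ± 97.5 CPM (SDs over 3 libraries each). The most abundant were miR-542-3p with 199 CPM in QHMM and 212 CPM in STH, miR-542-5p with 52.7 and 50.2 CPM, miR-450b-5p with 44.1 and 36.3 CPM, and miR-450a-3p with 4.59 and 4.17 CPM.

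**Figure D1:**
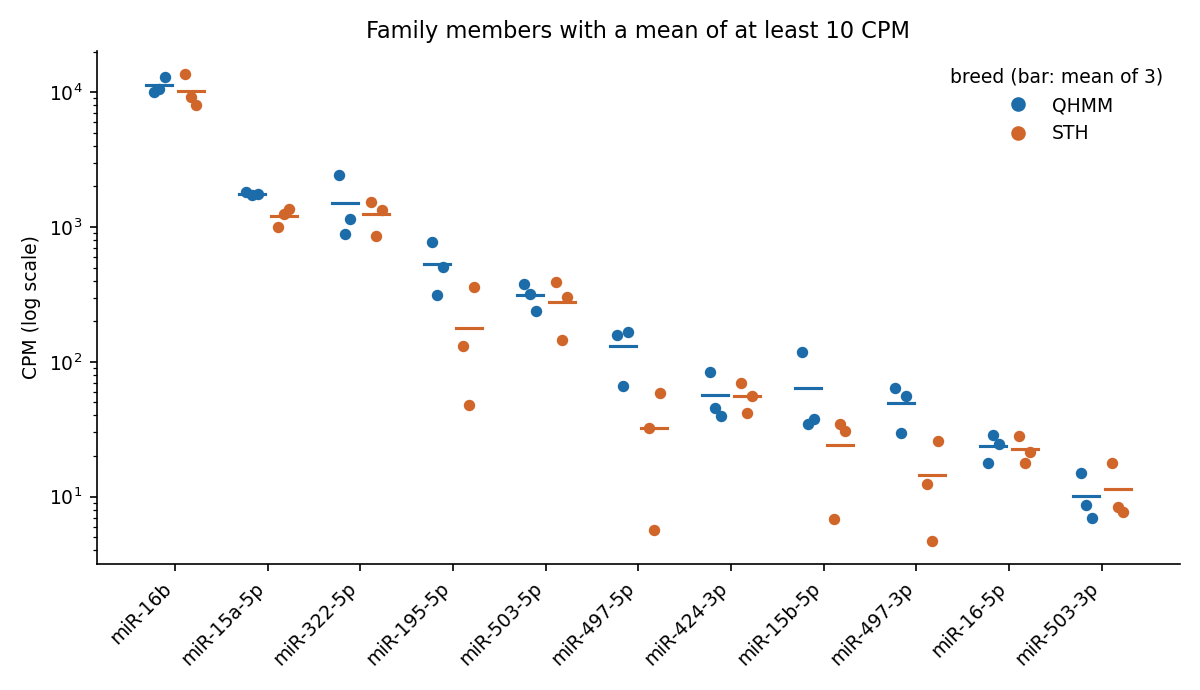
CPM (log scale) of the 11 family members with a mean of at least 10 CPM, one point per library, with QHMM and STH side by side and a bar at the mean of 3 libraries. miR-16b lies near 10752 CPM in both breeds, while the STH points of miR-195-5p, miR-497-5p and miR-497-3p spread over the widest range.

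The names of miR-195 and miR-497 varied widely. miR-195-5p had 776, 311 and 507 CPM in the QHMM libraries and 132, 48.0 and 357 CPM in the STH libraries, a range of 16.2-fold, and STH replicate 3 lay above QHMM replicate 2. miR-497-5p had 157, 66.4 and 167 CPM in QHMM and 32.2, 5.67 and 58.5 CPM in STH, a range of 29.4-fold with no overlap. Its 3p arm, miR-497-3p, had 63.5, 29.6 and 55.4 CPM in QHMM and 12.4, 4.70 and 26.0 CPM in STH, again with every QHMM library above every STH library. miR-195-3p had 6.64 to 12.5 CPM in the QHMM libraries and 3.28, 0.972 and 6.05 CPM in the STH libraries. The value of STH replicate 2 rests on 6 counts, with an exact Poisson 95% interval of 2.20 to 13.1 counts.

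The 4 names from chromosome 11 ordered the libraries nearly alike. STH replicate 2 was the lowest and STH replicate 1 the next lowest for each of them, and QHMM replicates 1 and 3 were the 2 highest. Because the names come from 1 cluster, they are not independent measurements. The ratio of miR-195-5p to miR-497-5p counts stayed between 3.04 and 8.46, and that of miR-195-3p to miR-497-3p between 0.163 and 0.264, a range of 1.62-fold against 12.8-fold for miR-195-3p alone. The ratio of miR-16b to miR-195-5p, which share 17 of 20 bases, ran from 13.0 in QHMM replicate 1 to 191 in STH replicate 2.

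**Figure D2:**
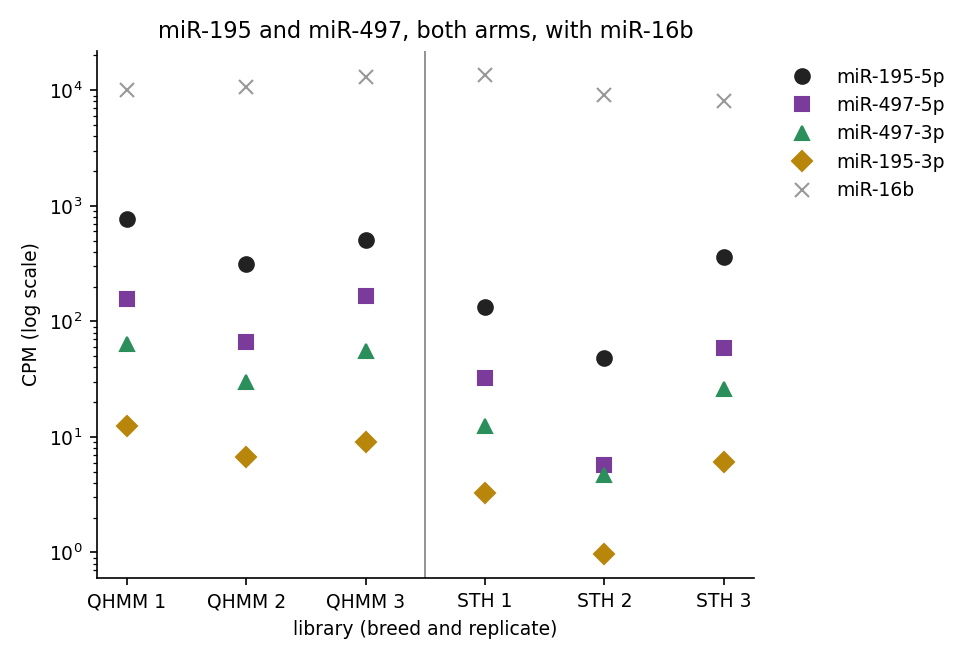
CPM (log scale) of both arms of miR-195 and miR-497 and of miR-16b in each library, with QHMM on the left and STH on the right of the line. The 4 names of the cluster move together and are lowest in STH replicate 2, at 48.0 CPM for miR-195-5p, while miR-16b stays between 8043 and 13620 CPM.

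The mean level was 4.05-fold higher in QHMM for miR-497-5p, 3.44-fold for miR-497-3p, 2.96-fold for miR-195-5p and 2.73-fold for miR-195-3p. The log2 fold change was 2.01 for miR-497-5p (standard error 0.71, 95% interval 0.37 to 3.66, adjusted p = 0.268 from edgeR) and 1.77 for miR-497-3p (standard error 0.50, 95% interval 0.67 to 2.87, adjusted p = 0.108). For miR-195-5p it was 1.55 (95% interval 0.06 to 3.05, adjusted p = 0.355 from edgeR) and for miR-195-3p 1.42 (95% interval 0.38 to 2.46, adjusted p = 0.181). None of the 4 passed the test over all names. Both arms of miR-497 passed with DESeq2 (adjusted p = 0.00984 for miR-497-5p and 0.00896 for miR-497-3p). Without STH replicate 3, the STH library with the highest level of this cluster, miR-195-5p (log2 fold change 2.53, adjusted p = 0.0252 from edgeR) and miR-497-3p (2.50, adjusted p = 0.0240) passed. Without STH replicate 2, the library with the lowest level, the log2 fold changes were 1.11 for miR-195-5p, 1.52 for miR-497-5p, 1.37 for miR-497-3p and 1.01 for miR-195-3p, and none passed.

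Markers of other cells were set beside these values. The 10 names of miR-143, miR-145, miR-199a and miR-214, of smooth muscle and connective tissue, summed to 35240 to 46558 CPM in QHMM and 42322 to 56638 CPM in STH. The endothelial miR-126 names, 5 in all, summed to 15567 to 32074 CPM in QHMM and 27808 to 31360 CPM in STH, and the 10 leukocyte names of miR-223, miR-142, miR-150 and miR-155 to 1790 to 1966 CPM and 1189 to 1465 CPM. Only the leukocyte sum and the red blood cell sum lay without overlap, both higher in QHMM. miR-451-5p held most of the red blood cell sum, with a mean of 24957 CPM against 309.7 CPM for miR-144-3p, the next. All 4 red blood cell names tested lay above 0, but none passed (adjusted p of 0.334 or more from edgeR). Of these, miR-144-5p and miR-486 overlapped between the breeds. The leukocyte names did not move together: of 6 tested none passed, 3 lay above 0 (miR-142-3p at 1.03, miR-142-5p at 0.71 and miR-150 at 0.29 on the log2 scale) and 3 below (miR-223-3p at -0.23, miR-223-5p at -0.25 and miR-155-5p at -0.35). Epithelial names, 14 of the miR-200 family and miR-205, summed to at most 32.1 CPM. All names of these lists had counts. The part of the leukocyte and red blood cell RNA in the values of miR-15a, miR-195 and miR-497 was not tested. Of the 16 muscle fibre names tested, 2 passed, while 2.20% of all names did in either direction. Both were higher in QHMM: miR-499-3p with a log2 fold change of 1.35 and miR-208b-3p with 1.27 (each with an adjusted p of 0.0419 in edgeR). Their other arms, miR-499-5p at 1.35 and miR-208b-5p at 0.67, did not pass (adjusted p = 0.0782 and 0.454 from edgeR). miR-499 and miR-208b are cut from introns of the slow myosin genes MYH7B and MYH7. The list did not move together: 11 of the 16 lay above 0. Below 0 were miR-133a-5p at -0.02, miR-133b-5p at -0.08, miR-206-3p at -0.27, miR-1-3p at -0.58 and miR-1b-5p at -0.60. The part of miR-499 and miR-208b in the values of miR-195 and miR-497 was not tested either.

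Over the whole family, 15 of the 17 names had enough counts to be tested, and the 2 left out are those with 2 counts each. None passed an adjusted p of 0.05 with edgeR, where 2.20% of 1274 names did, in either direction. With DESeq2 2 members passed, where 49 of 1274 names did. With no filter on low counts 4 members passed in edgeR, where 64 of 9972 names did. An unadjusted p under 0.05 was found for 5 members, all higher in QHMM, while 6.04% of all names tested had this in that direction. In 5 members the QHMM libraries all lay above the STH libraries (miR-15a-5p, miR-15b-5p, miR-497-5p, miR-497-3p and miR-195-3p), which held for 8.48% of all names. For miR-15b-5p this rests on 34.6 CPM in QHMM replicate 2 against 34.5 CPM in STH replicate 2. For miR-195-3p it rests on 6.64 CPM in QHMM replicate 2 against 6.05 CPM in STH replicate 3. Of the 5 by p, 4 are arms of miR-195 and miR-497 and so stand for 1 cluster. Of the 5 without overlap, miR-497-5p, miR-497-3p and miR-195-3p stand for that same cluster. The median log2 fold change was 0.55 over the 15 members and 0.03 over all names. Of the 15 values 13 were above 0, against 52.3% of all names. Names of 1 hairpin or cluster are not independent, so the 15 values are not 15 separate observations. Several of them turned sign when 1 library was left out.

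**Figure D3:**
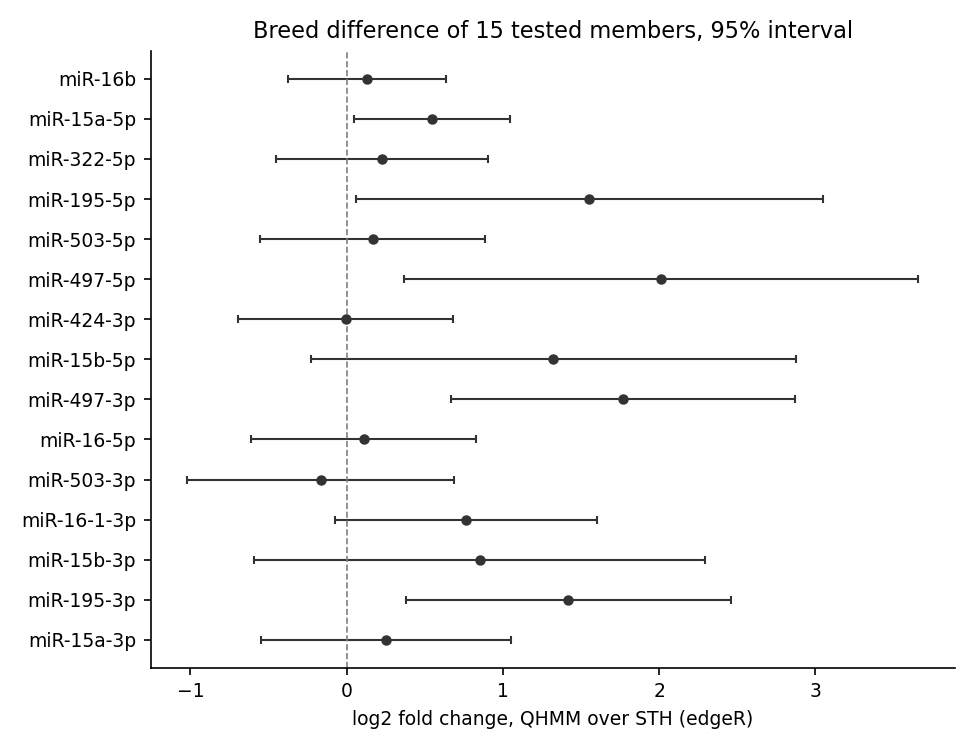
Log2 fold change of QHMM over STH from edgeR for the 15 tested members, in order of level, with 95% intervals before adjustment for the number of names. The intervals of miR-15a-5p, miR-195-5p, miR-497-5p, miR-497-3p and miR-195-3p lie above 0, from a lower bound of 0.05 for miR-15a-5p to 0.67 for miR-497-3p.

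The make-up of the family shifted with these members. miR-16b took 63.1% of the family's counts in QHMM replicate 1 and 80.8% in STH replicate 1. miR-322-5p took 15.3% in QHMM replicate 1 and 6.29% to 11.5% in the other libraries. miR-195-5p ranged from 0.413% in STH replicate 2 to 4.86% in QHMM replicate 1, and miR-15a-5p took 5.92% in STH replicate 1 and at least 10.4% elsewhere. Without miR-16b and miR-16-5p, the 5 other names with the miR-16 seed had 3986 ± 1187 CPM together in QHMM, against 2679 ± 488 CPM in STH (SDs over 3 libraries each), with overlap between the breeds.

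**Figure D4:**
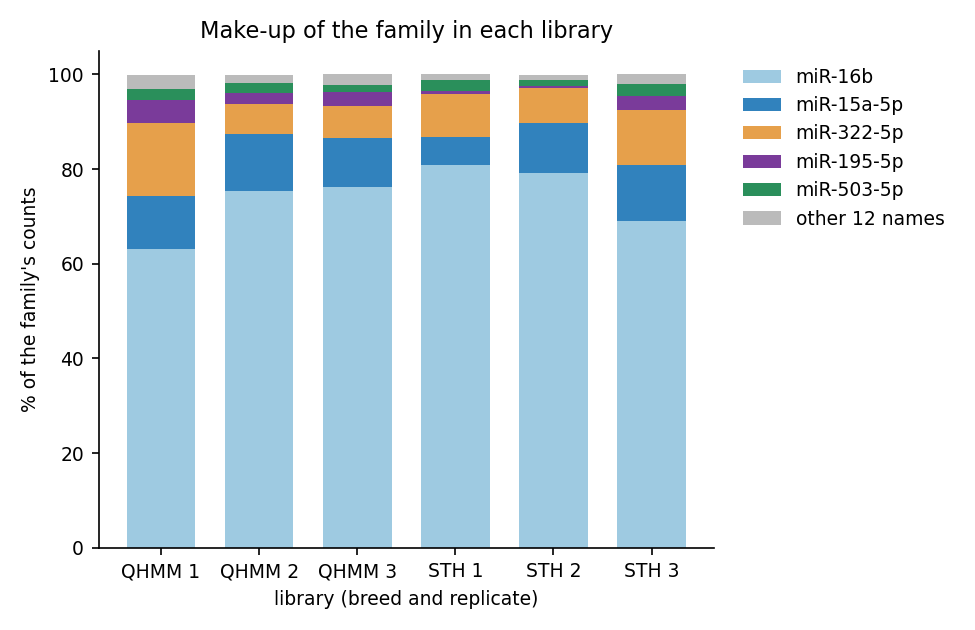
Stacked bars of the percentage of the family's counts held by each of the 5 most abundant members and by the other 12 names, one bar per library. miR-16b takes the largest share in each library, from 63.1% to 80.8%, and miR-195-5p is narrowest in STH replicate 2 at 0.413%.

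Each hairpin was also compared with itself, as the share of its 5p arm among the counts of both arms. The 5p arm dominated in miR-15a, with 99.6% to 99.8% in the 6 libraries, in miR-195 with 97.6% to 98.4%, in miR-322 with miR-424-3p as the other arm with 95.1% to 96.7%, and in miR-503 with 94.5% to 97.5%. The arms of miR-497 were nearer to each other, with 69.2% to 75.1% in QHMM and 54.7%, 69.3% and 72.2% in STH, the lowest in STH replicate 2 with 35 and 29 counts of the 5p and 3p arm. The share varied most for miR-15b: 97.3%, 87.7% and 62.8% in QHMM and 53.8%, 86.9% and 84.1% in STH. The low value of QHMM replicate 3 came with 165 counts of miR-15b-3p against 25 and 27 in the other QHMM libraries, and that of STH replicate 1 with 50 counts of miR-15b-5p against 213 and 244 in the other STH libraries. Among the 5 hairpins with at least 10 counts of each arm in every library, no difference between the breeds passed (two-sided exact permutation test, p = 0.40 to 0.50, adjusted p = 0.50 for each, where 3 against 3 libraries allow no p below 0.10). For miR-497 the mean share was 6.47 percentage points higher in QHMM, with SDs of 3.01 in QHMM and 9.37 in STH.

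**Figure D5:**
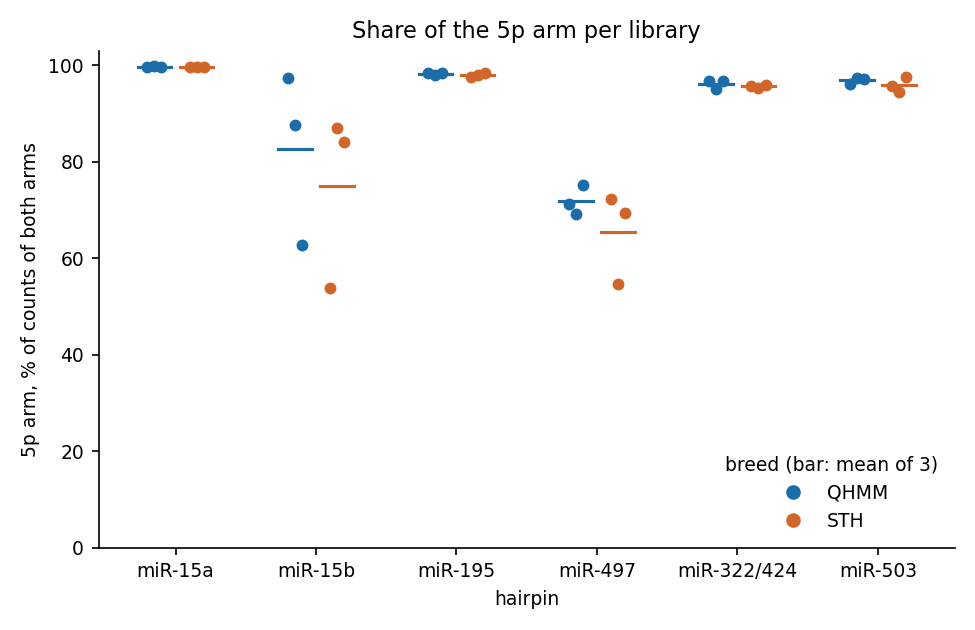
Percentage of the counts of both arms that fell on the 5p arm, for 6 hairpins, one point per library and a bar at the mean of 3. miR-15b runs from 53.8% to 97.3% and miR-497 from 54.7% to 75.1%, while the other hairpins stay at 94.5% or above.

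The remaining 3p arms were rare. miR-16-1-3p had 36 to 126 counts, miR-15b-3p 25 to 165 and miR-15a-3p 16 to 49 in a library, and none of them passed (adjusted p = 0.417, 0.617 and 0.794 from edgeR).

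Other miRNAs with a role in the cell cycle or in myoblast growth were read from the same fit. Of 43 names in this list 29 were tested and none passed with edgeR, 17 of them with a value above 0. The median log2 fold change of the list was 0.16. Its most abundant names were miR-1, listed as miR-1b, which drives muscle differentiation, at 0.01, miR-133, which keeps myoblasts dividing, at 0.43, miR-26a at -0.20 and the muscle-specific miR-206-3p at -0.27. miR-103 and miR-107, whose seed is that of miR-16 moved by 1 base, had values of 0.42 (95% interval -0.09 to 0.94) and 0.60 (95% interval 0.02 to 1.19), and neither passed (adjusted p = 0.459 and 0.355 from edgeR).

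The names whose level followed miR-16b most closely over the 6 libraries were miR-25, miR-4492, miR-574-3p and 2 predicted loci with no known name. The measure was the root mean square difference of log2 CPM, each centred on its own mean. It was 0.09 for miR-25, a miRNA of the miR-106b cluster, and 0.14 for miR-574-3p, against a median of 0.49 over 1259 names. miR-4492, at 0.10, and both loci had few counts, with means of 1.82 to 3.60 CPM.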

How the data were processed

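Longissimus muscle RNA of 3 QHMM and 3 STH samples was size-selected by gel for miRNA libraries and read on an Ion Proton sequencer. The deposited values are the authors' raw read counts for each mature sequence, with no normalization. Oar_v3.1 and DESeq are named in the submitters' processing notes. Neither the aligner nor the way multiply matching reads were counted is stated (not given in the sources used here), so that nested or near-identical rows may share reads. Library totals over all rows were 8062231 to 11282332. Replicates differed by at least 80.3 in chi-square per degree of freedom, so that none was a duplicate. Poisson intervals cover counting error only.

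Names were read without species prefix. The breeds were compared by the quasi-likelihood test of edgeR 4.0.16 (R 4.3.3) over all 6 libraries without covariates, using TMM factors, filterByExpr and a robust fit. An adjusted p (Benjamini-Hochberg) under 0.05 passed. Log2 fold changes are QHMM over STH, with standard errors and 95% intervals from the F statistic. Alternatives were DESeq2 1.42.0, other factors, filters and row rules, a replicate block, and leaving out each library. Arm shares were compared with scipy 1.17.1. The fits were run on simulated counts with known fold changes as a check of the code, which does not test the values of single members. Every member is accounted for, and of each list the names past the threshold and the 4 most abundant are named. Members, lists and rules were chosen with earlier results of these data known. Taking miR-1b for miR-1 and miR-133 for miR-133a was settled after the names were seen. No sheep genome was used here.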

Additional observations from a re-analysis of the deposited data

How the results depend on the processing

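The number of members past the threshold, 0 in the main analysis, was 2 with DESeq2, 4 with no filter on low counts (miR-195-5p, miR-497-5p, miR-497-3p and miR-15b-5p), 2 with the replicate block, and from 0 to 2 when single libraries were left out. The calls over all names, 28, were 49 with DESeq2, 64 with no filter, 8 with at least 10 counts in every library, 6 with known names only, and between 16 and 35 when single libraries were left out (16 without QHMM replicate 3 or STH replicate 3, and 18 without STH replicate 2). With no filter the median log2 fold change of all names moved from 0.03 to -0.34. The stricter filter and the known names leave fewer names to test, and no filter leaves more. The cause was not tested for any of the changes in number. No member passed with RLE or upper-quartile factors, with summed rows or with every row as a feature. The replicate block called miR-497-5p (2.38, adjusted p = 0.0313 from edgeR) and miR-497-3p (1.99, adjusted p = 0.0286). The deviations of same-numbered libraries from their breed means had correlations of 0.011, 0.20 and 0.16 for numbers 1, 2 and 3. For number 1 this is no correlation: QHMM replicate 1 had -0.011 and -0.001 with STH replicates 2 and 3. Numbers 2 and 3 correlated best with their own number, and QHMM replicates 2 and 3 had -0.18 and -0.17 with STH replicates 3 and 2. The labels give no pairing, and whether the libraries were paired was not tested. Taken from breed means, the values are not independent of each other.

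The family level of 15695 CPM in QHMM and 13364 CPM in STH was 11336 and 9664 CPM with summed rows, 11321 and 9652 CPM with the total over all rows, and 26536 and 21254 CPM with a total without miR-1 and miR-451. Several members turned sign, for which the cause was not tested, among them miR-15b-3p, from 0.85 to -0.47 without QHMM replicate 3. Leaving out single libraries, the log2 fold change was -0.025 to 0.35 for miR-16b, -0.26 to 0.44 for miR-322-5p, -0.12 to 0.47 for miR-503-5p, -0.35 to 0.17 for miR-424-3p, -0.16 to 0.29 for miR-16-5p, -0.49 to 0.28 for miR-503-3p, -0.47 to 1.23 for miR-15b-3p and -0.066 to 0.45 for miR-15a-3p. miR-424-3p was also 0.070 with no filter. Those of miR-195, miR-497, miR-15a-5p, miR-15b-5p and miR-16-1-3p kept their sign in all alternatives run, with ranges over single libraries left out of 1.11 to 2.53 for miR-195-5p, 1.52 to 2.77 for miR-497-5p, 1.37 to 2.50 for miR-497-3p and 1.01 to 2.10 for miR-195-3p. Depth limits miR-195-3p, miR-15a-3p, miR-322-3p and miR-16-2-3p, each with few counts.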
